A study of Mus musculus with 8 samples.

Results

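The inflammasome and interleukin-1 genes examined here are 10 of the 52636 genes in each count table: the sensor Nlrp3, the adaptor Pycard, the caspases Casp1 and Casp4, the pore protein gene Gsdmd, the cytokines Il1a, Il1b and Il18, the receptor antagonist Il1rn and the receptor Il1r1. Their rows were found by symbol through their Ensembl identifiers on GRCm38, a rule that uses no measured value. The 10 genes themselves were chosen with earlier results of these data known. All 10 had a row in every table and passed the low-count filter that left 15248 genes for testing.

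An inflammasome is a protein complex of innate immune cells in which a sensor such as NLRP3 binds the adaptor ASC, encoded by Pycard, and through it brings caspase-1 to cleave itself. Active caspase-1 matures pro-interleukin-1β and pro-interleukin-18 and cuts gasdermin D, whose fragments form membrane pores that release both cytokines, whereas caspase-11, encoded in the mouse by Casp4, senses intracellular lipopolysaccharide and cuts gasdermin D directly. Interleukin-1α and interleukin-1β signal through the receptor encoded by Il1r1, the antagonist encoded by Il1rn competes for the same receptor, and in fatty liver disease Kupffer cells and recruited macrophages are known as main sources of these cytokines.

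RNA sequencing was performed on livers of 8 wild-type male C57BL/6J mice. At 7 weeks of age the mice received an adeno-associated virus of serotype 8, either AAV8-TBG-GFP as control (AAV8-GFP, n = 4) or AAV8-TBG-AGXT (AAV8-AGXT, n = 4), which carries human AGXT, the enzyme that detoxifies glyoxylate to glycine. The TBG promoter restricts expression of either protein to hepatocytes. Every mouse, controls included, was fed a diet rich in fat, fructose and cholesterol (the MASH diet) from 8 weeks of age for 24 weeks, and no chow-fed or uninjected mice were among the samples analysed here. The comparison asks whether inflammasome and interleukin-1 transcripts differ when hepatocytes of mice on that diet carry AGXT.

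Between 17095433 and 28780140 read pairs were assigned to genes per liver. The mouse Agxt row does not measure the human coding sequence directly, and whether reads of that sequence were counted in it was not tested. That row stood at 148 to 180 normalized CPM (counts scaled to a common library size) in AAV8-GFP livers and 202 to 405 in AAV8-AGXT livers. The lowest share of tallied read pairs falling on genes, 56.3%, was that of AAV8-AGXT mouse 308, against 62.4% to 69.1% in the other livers. Mouse 308 was also the lowest of the 8 for 6 of the 10 genes (Nlrp3, Pycard, Casp1, Casp4, Il18 and Il1rn), and AAV8-AGXT mouse 319 was the highest for 4 (Gsdmd, Il1b, Il18 and Il1r1). Summed markers of hepatocytes, the cells the tissue label implies, were at 43106 to 52165 CPM in the controls and 52897 to 74494 CPM in the AAV8-AGXT group. Alb made up most of that sum in every liver, and its own groups overlapped (0.34 higher on the log2 scale, edgeR, adjusted p = 0.283). All 6 markers were higher on average and 1 was called. Of those hepatocyte markers Cps1, the first enzyme of the urea cycle, was higher in AAV8-AGXT livers by 0.96 on the log2 scale (edgeR, adjusted p = 0.0279), a call lost without control mouse 303, 311 or 314 or AAV8-AGXT mouse 319 (adjusted p up to 0.117).

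Expression of Casp4, the caspase-11 gene, was 2.45-fold lower in AAV8-AGXT livers, and it was the only one of the 10 genes to pass the test. Casp1, Pycard and Il1rn were also lower on average, by 1.61-fold to 1.95-fold, but did not reach an adjusted p under 0.05. Il1b, Il18 and Il1r1 had averages slightly above the controls that lay within the spread between mice, and Il1a, Nlrp3 and Gsdmd averages slightly below them that did too. Values are CPM scaled by edgeR's trimmed mean of M-values (TMM), and differences are log2 fold changes of AAV8-AGXT over AAV8-GFP from the quasi-likelihood test of edgeR, with p-values adjusted by the Benjamini-Hochberg method over all 15248 genes. Of the 10 genes, 1 was called lower and 0 higher at an adjusted p under 0.05, where 1.90% of all tested genes were called lower and 2.45% higher (4.35% in either direction). At an unadjusted p under 0.05, 4 of the 10 were lower and 0 higher, where 12.6% of all tested genes were lower and 26.2% were past that p in either direction. Log2 fold changes were below 0 for 7 of the 10, where 47.7% of all tested genes were below 0, and their median was -0.35 beside 0.02 over all tested genes.

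**Figure D1:**
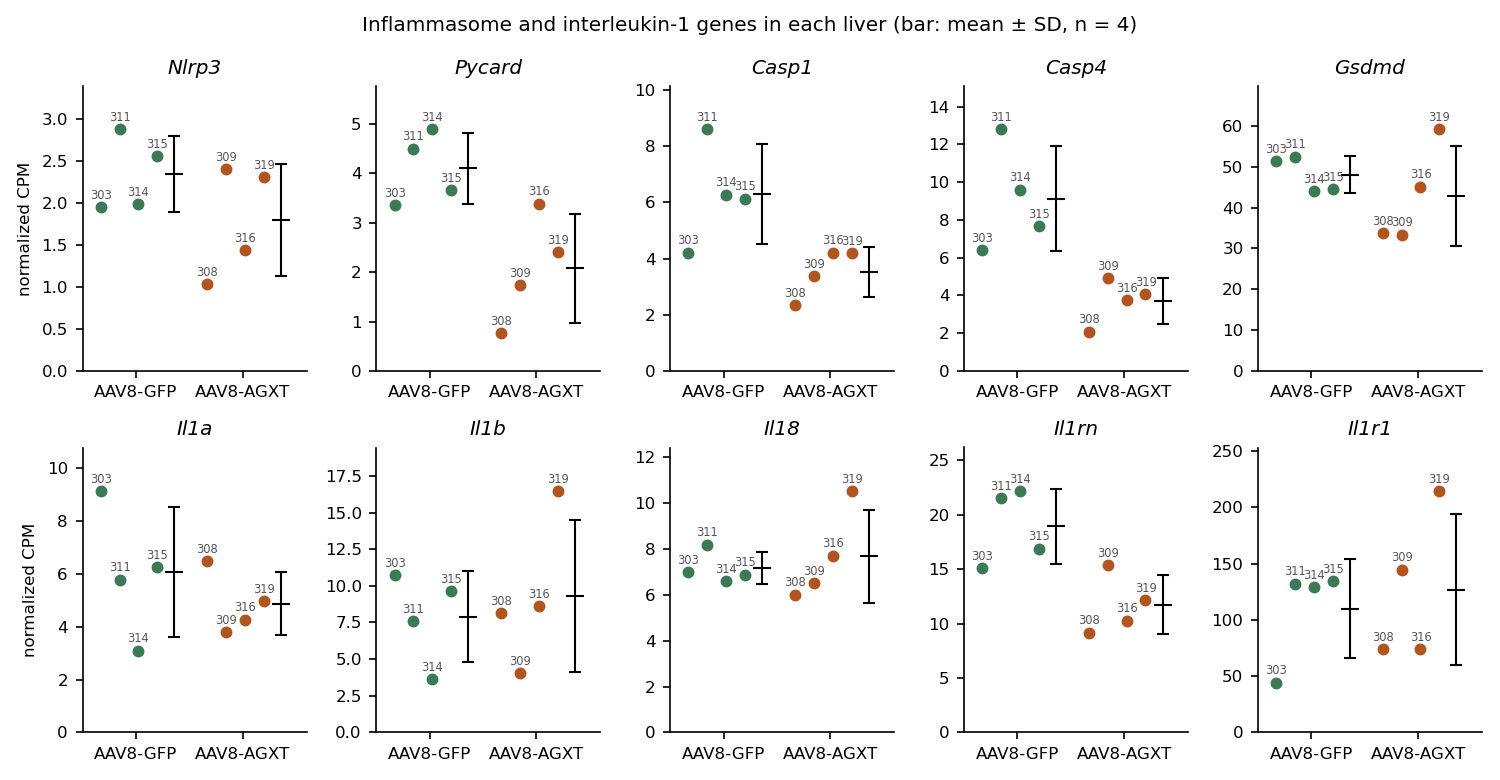
Normalized expression (CPM, linear axis from 0) of the 10 genes in each liver, with points numbered by mouse and bars giving the mean ± SD of 4 mice per group. The groups are apart for Casp4 and, by the narrowest margin, for Casp1, and mouse 319 is the highest point for Gsdmd, Il1b, Il18 and Il1r1.

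Casp1 and Casp4 lie next to each other on chromosome 9, both on the forward strand, Casp1 at chr9:5298517-5307265 and Casp4 at chr9:5308828-5336783 (GRCm38, GENCODE M21), with 1562 bases between them. The bases upstream of both are shown because these neighbours had the lowest p-values among the inflammasome components, and those of Il1b as the macrophage cytokine, which did not pass the test. Each run is the 250 bases before the annotated start in RefSeq on GRCm38.p6, read 5′ to 3′ on the gene's strand, and capitals mark matches to a searched motif: the NF-kB consensus in Casp4, which begins 93 bases before the start, and the TATA box letters TATAAA in Il1b, which begin 31 bases before it. The regions are chr9:5308599-5308848 on the forward strand for Casp4, chr9:5298267-5298516 on the forward strand for Casp1 and chr2:129371140-129371389 on the reverse strand for Il1b.
Casp4: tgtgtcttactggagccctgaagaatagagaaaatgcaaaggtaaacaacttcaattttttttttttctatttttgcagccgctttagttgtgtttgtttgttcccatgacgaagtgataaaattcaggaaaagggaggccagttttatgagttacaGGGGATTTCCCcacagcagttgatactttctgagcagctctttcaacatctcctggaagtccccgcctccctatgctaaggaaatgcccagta
Casp1: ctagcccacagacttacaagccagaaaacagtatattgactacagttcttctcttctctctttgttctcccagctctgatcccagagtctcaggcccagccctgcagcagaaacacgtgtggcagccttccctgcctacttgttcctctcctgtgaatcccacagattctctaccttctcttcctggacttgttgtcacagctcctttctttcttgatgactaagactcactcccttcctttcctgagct
Il1b: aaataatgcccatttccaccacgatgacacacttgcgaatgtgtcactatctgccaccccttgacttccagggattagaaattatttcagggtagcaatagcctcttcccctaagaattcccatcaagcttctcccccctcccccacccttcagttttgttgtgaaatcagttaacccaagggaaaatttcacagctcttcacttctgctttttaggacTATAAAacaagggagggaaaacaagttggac
In Casp4 the capitals join 2 overlapping matches to the consensus.

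Windows of 300 bases, from 250 before to 50 after a start, were found in RefSeq for 9 of the 10 genes, in 14 windows with alternative starts counted. Both strands were searched for 5 motifs. The NF-kB consensus, bound by a main transcription factor of inflammatory genes, was matched in 4 of the 14 windows (Casp4 in both of its overlapping windows, Nlrp3 and Il1r1) and in 4.51% of all 32851 windows. The AP-1 letters TGANTCA were matched for Il1a and Il1rn and in 7.81% of all windows. TATAAA was matched for Il1a and Il1b, beginning 32 and 31 bases before the start. For Il18 and Il1rn the match was on the opposite strand, read as TTTATA. It began 175 bases before the start for Il18 and at base 15 past it for Il1rn. On either strand, TATAAA was in 13.6% of all windows. Neither a pair of interferon regulatory factor half-sites (GAAA, any 2 bases, GAAA) nor TTCNNNGAA, the letters of a STAT site, was matched for any of the genes, and these were in 3.44% and 8.30% of all windows. A match describes letters in a window, and binding was not measured.

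Nlrp3, the sensor (chr11:59541568-59566956, forward strand), was a low transcript at 1.95, 2.88, 1.98 and 2.56 CPM in AAV8-GFP mice 303, 311, 314 and 315. In AAV8-AGXT mice 308, 309, 316 and 319, the order used for every gene that follows, it was at 1.04, 2.40, 1.44 and 2.31 CPM. AAV8-AGXT mice 308 and 316 were below every control, and the other two lay among the controls. The log2 fold change was -0.38 ± 0.30 (SE, adjusted p = 0.450), and an exact two-sided permutation test of log2 CPM over the 70 ways to divide 8 mice into groups of 4 gave p = 0.229, where the smallest p it allows is 0.0286.

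Pycard, the ASC adaptor that links sensor to caspase (chr7:127989708-127993867, reverse strand), was at 3.36, 4.50, 4.89 and 3.66 CPM in AAV8-GFP livers. In AAV8-AGXT livers it was at 0.759, 1.74, 3.39 and 2.41 CPM. In the AAV8-AGXT group, 3 mice were below every control and mouse 316 was level with control mouse 303, so the groups overlapped by that pair alone. The difference in means, 4.10 ± 0.713 against 2.08 ± 1.11 CPM (SD, n = 4), corresponded to a log2 fold change of -0.96 ± 0.36 (SE, adjusted p = 0.132; exact permutation p = 0.0571). Pycard counts were low, at 11 to 147 read pairs per liver, and 12.8% of its exon bases overlap the opposite-strand gene Gm45205, whose reads cannot be told apart from its own if strand was not used in counting.

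Casp1, whose product matures interleukin-1β and interleukin-18, was at 4.22, 8.601, 6.27 and 6.13 CPM in AAV8-GFP livers. It was at 2.35, 3.37, 4.21 and 4.20 CPM in AAV8-AGXT livers. Every AAV8-AGXT mouse was below every control, but mouse 316 at 4.211 CPM and control mouse 303 at 4.217 CPM were separated by less than counting error. The means were 3.53 ± 0.883 and 6.31 ± 1.80 CPM (SD, n = 4), with a log2 fold change of -0.83 ± 0.26 (SE, unadjusted p = 0.00955, adjusted p = 0.0855; exact permutation p = 0.0286).

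Casp4, whose product caspase-11 drives the noncanonical inflammasome, was at 6.40, 12.8, 9.60 and 7.67 CPM in AAV8-GFP livers. It was at 2.07, 4.93, 3.75 and 4.06 CPM in AAV8-AGXT livers. The highest AAV8-AGXT mouse, 309, stood below the lowest control, 303, so the groups did not overlap. Casp4 fell from 9.12 ± 2.78 to 3.70 ± 1.196 CPM (SD, n = 4), a log2 fold change of -1.30 ± 0.29 (SE, adjusted p = 0.0426; exact permutation p = 0.0286). Groups that did not overlap with AAV8-AGXT lower were seen for 2 of the 10 genes, Casp1 and Casp4, where 7.63% of all tested genes showed this, and none of the 10 was higher without overlap, where 8.93% of all tested genes were (16.6% in either direction). With 1 mouse left out at a time the log2 fold change of Casp4 stayed between -1.47 and -1.10, but the adjusted p was 0.05 or more without control mouse 303 (0.0526), 311 (0.148) or 314 (0.101), or without AAV8-AGXT mouse 308 (0.0682), 316 (0.067) or 319 (0.0967).

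Gsdmd, the pore-forming substrate of both caspases (chr15:75862327-75867408, forward strand), was at 51.4, 52.4, 44.1 and 44.5 CPM in AAV8-GFP livers. It was at 33.7, 33.4, 45.1 and 59.1 CPM in AAV8-AGXT livers. Mice 308 and 309 were below every control and mouse 319 above every control. The log2 fold change was -0.17 ± 0.18 (SE, adjusted p = 0.593; exact permutation p = 0.400).

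**Figure D2:**
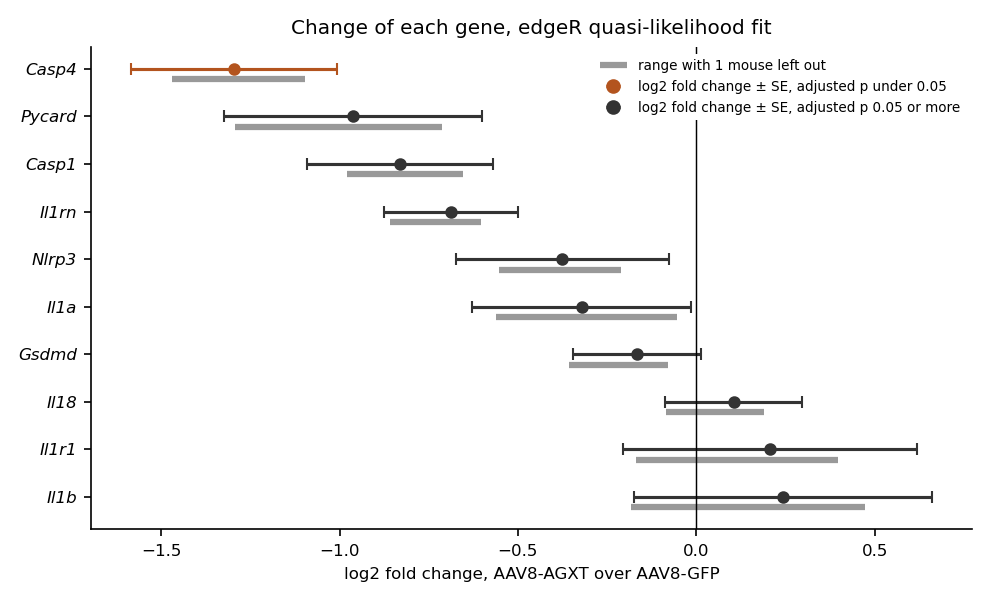
Log2 fold change of each gene, AAV8-AGXT over AAV8-GFP, with SE (points and thin bars, n = 4 per group) and the range of the estimate with 1 mouse left out at a time (grey bars). Only Casp4 has an adjusted p under 0.05, and the grey bars of Il18, Il1r1 and Il1b cross 0.

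Among the ligands, Il1a (chr2:129299610-129309972, reverse strand), which encodes the alarmin interleukin-1α, was at 9.14, 5.79, 3.09 and 6.26 CPM in AAV8-GFP livers and 6.49, 3.79, 4.26 and 4.96 CPM in AAV8-AGXT livers. Every AAV8-AGXT value fell inside the range of the controls. The log2 fold change was -0.32 ± 0.31 (SE, adjusted p = 0.539; exact permutation p = 0.543). Of its exon bases 11.2% overlap the opposite-strand gene Gm14023.

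Il1b (chr2:129364570-129371139, reverse strand), the macrophage cytokine that the inflammasome matures, was at 10.7, 7.59, 3.64 and 9.62 CPM in AAV8-GFP livers. It was at 8.15, 4.03, 8.63 and 16.5 CPM in AAV8-AGXT livers. Mouse 319 was above every control and the other 3 AAV8-AGXT mice lay among them. The means of 7.90 ± 3.12 and 9.32 ± 5.196 CPM (SD, n = 4) differed by a log2 fold change of 0.24 ± 0.42 (SE, adjusted p = 0.751; exact permutation p = 0.8286), which became -0.18 without mouse 319. That liver also held the highest Saa1, an acute-phase transcript known to be induced by interleukin-1 and named here after its value was seen, at 3221 CPM beside 108 to 699 CPM in the other 7 livers. Among the other tested genes known to be induced by interleukin-1, Saa2 and Lcn2 were also above every control in that liver. Saa3 and Zc3h12a lay among the controls there, and Cxcl1, Cxcl2, Ccl2, Nfkbia and Tnfaip3 were below every control.

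Il18 (chr9:50554827-50581840, forward strand), the other cytokine matured by caspase-1, varied little between controls, at 6.99, 8.17, 6.596 and 6.88 CPM in AAV8-GFP livers and 6.01, 6.49, 7.70 and 10.5 CPM in AAV8-AGXT livers. Mice 308 and 309 were below every control and mouse 319 above every control. The log2 fold change was 0.10 ± 0.19 (SE, adjusted p = 0.770; exact permutation p = 0.771), and -0.08 without mouse 319.

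Il1rn (chr2:24336853-24351494, forward strand), the gene of the secreted receptor antagonist, was at 15.1, 21.6, 22.2 and 16.9 CPM in AAV8-GFP livers. It was at 9.18, 15.4, 10.3 and 12.1 CPM in AAV8-AGXT livers. AAV8-AGXT mouse 309 was just above control mouse 303 and the other 3 were below every control. The means were 18.9 ± 3.49 and 11.7 ± 2.72 CPM (SD, n = 4), with a log2 fold change of -0.69 ± 0.19 (SE, unadjusted p = 0.00442, adjusted p = 0.0674; exact permutation p = 0.0571).

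Il1r1 (chr1:40225080-40317257, forward strand), the signalling receptor, varied widely between mice, at 44.1, 132.0, 129 and 135 CPM in AAV8-GFP livers and 74.1, 145, 74.2 and 215 CPM in AAV8-AGXT livers. Control mouse 303 was the lowest of all 8 and AAV8-AGXT mouse 319 the highest, with mice 309 and 319 above every control and mice 308 and 316 between control mouse 303 and the other 3 controls. The log2 fold change was 0.21 ± 0.41 (SE, adjusted p = 0.790; exact permutation p = 0.771), -0.06 without mouse 303 and -0.17 without mouse 319.

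The levels of the genes can be set beside each other only per length, as CPM per kilobase of exon. Length here is all annotated exon bases of a gene merged, not that of the transcripts in use, which was not measured. For Pycard these 3800 bases cover most of its locus, so its place and the order of the genes depend on the annotation. In AAV8-GFP livers Gsdmd (20.2 ± 1.87 CPM per kilobase, SD, n = 4) and Il1r1 (17.3 ± 6.91) came first with overlapping ranges, the lowest Il1r1 value also reaching the range of Il18. The ligands and Casp1 followed, with Il18 at 6.94 ± 0.674, Casp1 at 4.21 ± 1.199, Il1b at 4.14 ± 1.64, Il1rn at 3.42 ± 0.630, Il1a at 3.07 ± 1.26 and Casp4 at 2.46 ± 0.750 CPM per kilobase. Each neighbouring pair from Casp1 down to Casp4 overlapped between mice, while Il18 was above Casp1 in every control. Pycard at 1.08 ± 0.188 and Nlrp3 at 0.578 ± 0.112 CPM per kilobase were the lowest on this scale, each apart from its neighbour above. In AAV8-AGXT livers Il1a, Casp1 and Il1rn overlapped in turn at 2.47 ± 0.598, 2.36 ± 0.590 and 2.12 ± 0.491 CPM per kilobase, and Casp4 stood below them at 0.998 ± 0.322, overlapping with Pycard at 0.546 ± 0.291.

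In bulk liver, fewer cells of a type and less RNA per cell cannot be told apart, so each gene was also expressed relative to Ptprc, which encodes the pan-leukocyte protein CD45 (ratios of CPM with a prior count of 2). Ptprc was at 18.4, 29.7, 24.96 and 29.2 CPM in AAV8-GFP livers and 7.11, 20.9, 22.1 and 21.2 CPM in AAV8-AGXT livers (log2 fold change -0.52, adjusted p = 0.314). Summed pan-leukocyte markers were at 180 to 307 CPM in the controls and 62.6 to 189 CPM in the AAV8-AGXT group, with all 6 below 0 in log2 fold change and 0 of 6 called. Over all tested genes, 47.7% were below 0 and 1.90% were called lower. Markers of recruited macrophages were at 382 to 885 and 94.5 to 396 CPM, with all 7 below 0 and 1 called. Spp1, which is also on the cholangiocyte list, made up most of that sum in every liver. It was at 201.1 to 611.5 CPM in the controls and 60.3 to 239 CPM in the AAV8-AGXT group. The gene called was Cd9, a tetraspanin of lipid-associated macrophages that other liver cells also express (log2 fold change -1.02, adjusted p = 0.0298). The Cd9 call was lost without control mouse 303, 311 or 314 or AAV8-AGXT mouse 319 (adjusted p up to 0.126). The general macrophage list was at 875 to 1444 and 285 to 992 CPM, with 7 of 8 below 0 and 0 of 8 called. Kupffer cell markers were at 231 to 364 and 181 to 743 CPM, with 5 of 6 above 0 and 0 of 6 called. The 743 CPM was mouse 319 alone, and the other AAV8-AGXT livers were at 181, 253 and 316 CPM. Of the Kupffer cell markers, Marco had the largest log2 fold change, 3.63 (edgeR, adjusted p = 0.0802). It was at 0.554 to 5.645 CPM in the controls and 5.94 to 156 CPM in the AAV8-AGXT group, without overlap. Timd4 had a log2 fold change of 2.485 (edgeR, adjusted p = 0.0736), with overlap. Both were highest in mouse 319, and Cd5l alone was below 0. The part that these cell type differences have in the lower Casp4, Casp1, Pycard and Il1rn values was not tested beyond the ratios that follow.

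The ratio of Casp4 to Ptprc was 0.351, 0.433, 0.387 and 0.265 in AAV8-GFP livers and 0.300, 0.240, 0.173 and 0.195 in AAV8-AGXT livers. Mouse 308 overlapped with control mouse 315, and the log2 difference of -0.67 was smaller than the log2 fold change of Casp4 itself (exact permutation p = 0.0571). For Casp1 the log2 difference relative to Ptprc was -0.19 (exact permutation p = 0.486), for Il1rn -0.07 (p = 0.914, exact permutation) and for Pycard -0.48 (p = 0.0857, exact permutation). Those of Nlrp3, Gsdmd, Il1a, Il1b, Il18 and Il1r1 were above 0, from 0.20 for Nlrp3 to 0.81 for Il1r1. The smallest exact permutation p among them was 0.0857, for Il18, and the log2 difference of Il1a became -0.15 without mouse 308. Ptprc itself had a log2 fold change of -0.52, so a gene that did not change would also have a difference above 0. Which liver cells held these transcripts was not measured. For all 10 ratios to Ptprc the groups overlapped, and no p was adjusted for the 14 ratios computed in all.

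**Figure D3:**
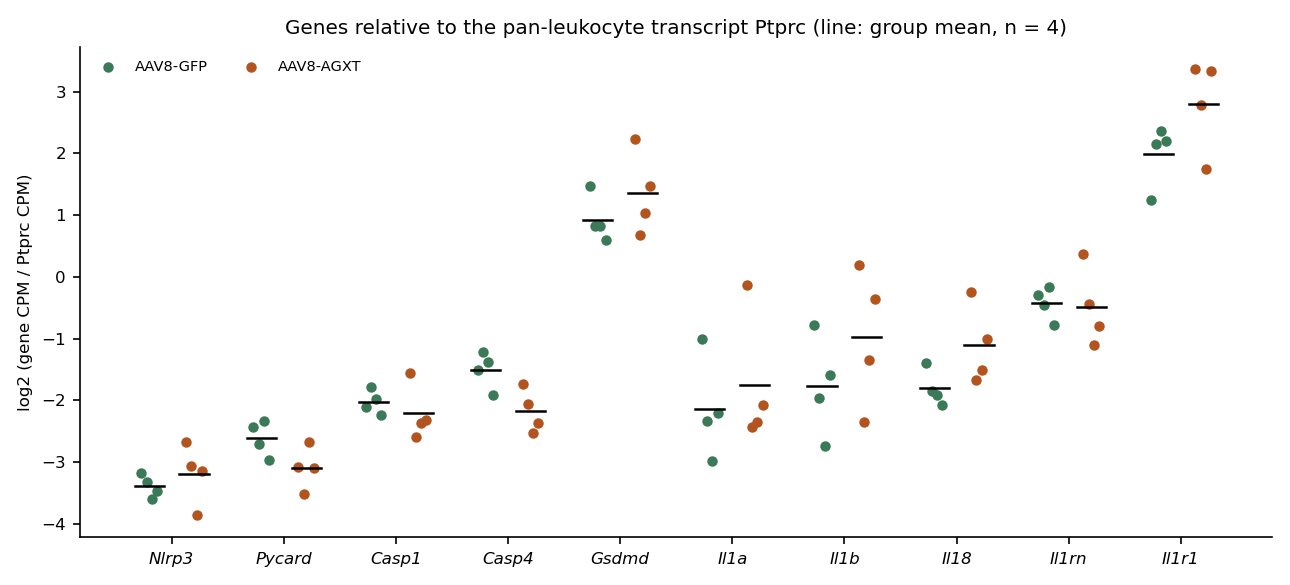
Log2 ratio of the CPM of each gene to the CPM of the pan-leukocyte gene Ptprc in each liver (points), with the mean of 4 mice per group as a line. The groups overlap for every gene, and the gap between group means is -0.67 for Casp4 and -0.07 for Il1rn.

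Adgre1, which encodes the macrophage protein F4/80, was at 8.04, 15.2, 17.9 and 14.03 CPM in AAV8-GFP livers and 6.01, 14.7, 13.9 and 25.4 CPM in AAV8-AGXT livers (log2 fold change 0.13, adjusted p = 0.860). It was the only 1 of the 8 general macrophage markers above 0, and ratios to the 7 below 0 were not computed. Relative to Adgre1, a ratio chosen after values were seen, Casp4 was at 0.798, 0.840, 0.537 and 0.550 in AAV8-GFP livers and 0.355, 0.339, 0.274 and 0.163 in AAV8-AGXT livers. The groups did not overlap for this ratio, and the log2 difference was -1.30 (exact permutation p = 0.0286). For Il1b relative to Adgre1, also chosen later, the log2 difference was 0.17 (exact permutation p = 0.771).

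The CPM ratio of antagonist to cytokine, Il1rn over Il1b, was 1.40, 2.82, 5.96 and 1.75 in AAV8-GFP livers. It was 1.13, 3.76, 1.19 and 0.738 in AAV8-AGXT livers. In the AAV8-AGXT group, 3 mice were below every control and mouse 309 was above all but control mouse 314 (log2 difference -0.87, exact permutation p = 0.257). Casp4 over Casp1, chosen after values were seen, was 1.51, 1.48, 1.52 and 1.25 in AAV8-GFP livers and 0.887, 1.45, 0.893 and 0.967 in AAV8-AGXT livers. Only mouse 309 reached the controls for this ratio of the neighbouring caspase genes (log2 difference -0.48, exact permutation p = 0.0571). Both ratios are of CPM uncorrected for length, so they compare livers and do not tell which transcript was more abundant.

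Other genes of the pathway were taken as whole lists. The counts called in each are to be read beside the 2.45% of all tested genes called higher and 1.90% called lower. Of 13 other inflammasome sensors, 12 were tested, 1 was called higher and 0 lower, and their median log2 fold change was -0.27, beside the 0.02 of all tested genes. The gene called was Nlrp12, an NLR family member known to restrain inflammatory signalling, at 85.8, 71.4, 75.3 and 72.3 CPM in AAV8-GFP livers and 230, 192, 130 and 158 CPM in AAV8-AGXT livers. Every AAV8-AGXT mouse was above every control, and the log2 fold change was 1.22 ± 0.17 (SE, adjusted p = 0.0202). The adjusted p of Nlrp12 was 0.05 or more without control mouse 311 or 314 or AAV8-AGXT mouse 319, at most 0.108. Nlrp1a had too few counts to be tested.

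Of 12 inflammasome activator and pore genes, 11 were tested, 0 were called higher and 1 lower, with a median of -0.11. Card9, the adaptor downstream of C-type lectin receptors of myeloid cells, was at 4.73, 8.23, 5.81 and 5.60 CPM in AAV8-GFP livers and 1.11, 1.86, 3.29 and 3.21 CPM in AAV8-AGXT livers. The groups did not overlap, with a log2 fold change of -1.35 ± 0.33 (SE, adjusted p = 0.0495), but leaving out any 1 mouse raised the adjusted p to between 0.0545 and 0.170. Elane, the neutrophil elastase gene, was not tested for lack of counts.

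Among 14 other ligands and receptors of the interleukin-1 family, 7 had enough counts to be tested and 0 were called (median -0.35). Il1rap, the accessory chain that pairs with the Il1r1 product, was at 76.4 ± 14.5 CPM in controls and 104 ± 12.8 CPM in the AAV8-AGXT group (SD, n = 4; log2 fold change 0.45, adjusted p = 0.0941). Il33, an alarmin of the same family, was at 2.86 ± 1.75 and 1.17 ± 0.446 CPM (SD, n = 4; log2 fold change -1.29, adjusted p = 0.0998). The decoy receptor Il1r2, the interleukin-33 receptor Il1rl1, Il36a, Il36b, Il36g, Il36rn and Il1f10 were too low to test. Of 14 genes of signalling downstream of the receptor, all 14 were tested, 0 were called and 10 were above 0 (median 0.08). The smallest p there belonged to Chuk, the IKK-alpha kinase gene, at 88.9 ± 9.43 and 113 ± 6.86 CPM (SD, n = 4; log2 fold change 0.34, adjusted p = 0.0866).

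Of 14 genes known to be induced by interleukin-1, 10 were tested, and their median log2 fold change was -0.70. Of these 10, 2 were called lower and 0 higher, where 1.90% of all tested genes were called lower and 2.45% higher. Whether interleukin-1 signalling itself differed was not tested. Cxcl2, a neutrophil-attracting chemokine, was at 1.17, 2.02, 1.38 and 2.21 CPM in AAV8-GFP livers and 0.621, 0.601, 0.514 and 0.519 CPM in AAV8-AGXT livers. It fell by 1.59 on the log2 scale (SE 0.30, adjusted p = 0.0335) with no overlap between groups, on only 9 to 66 read pairs per liver. Tnfaip3, whose product A20 restrains NF-kB signalling, was at 13.2, 18.9, 15.4 and 13.1 CPM in AAV8-GFP livers and 4.56, 8.77, 7.91 and 7.03 CPM in AAV8-AGXT livers. It fell by 1.10 on the log2 scale (SE 0.21, adjusted p = 0.0341), also with no overlap. With 1 mouse left out, Cxcl2 kept an adjusted p under 0.05 in 3 of 8 fits (lost without 311, 314, 308, 316 or 319, up to 0.126) and Tnfaip3 in 4 of 8 (lost without 303, 311, 314 or 319, up to 0.127). Cxcl5, Il6, Ptgs2 and Csf3 were too low to test.

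The remaining cell type lists describe what else the livers held. Neutrophil markers summed to 21.3 to 33.9 CPM in controls and 7.04 to 22.8 CPM in the AAV8-AGXT group, with 4 of 9 tested and 0 called, and the neutrophil-defining Ly6g was at 0 in all controls and had at most 3 read pairs in any liver (Retnlg, Mmp8, Ngp and Camp were also untested). T and B cell markers were at 13.1 to 19.1 and 7.11 to 13.3 CPM. Stellate cell markers were at 348 to 556 and 212 to 449 CPM. Endothelial markers were at 121 to 190 and 125 to 250 CPM. Cholangiocyte markers were at 225 to 673 and 74.1 to 273 CPM. In each of these lists 0 genes were called. Spp1 made up most of the cholangiocyte sum, so that sum and the one of recruited macrophage markers are not independent.

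How firmly each of the 4 lowest p-values holds depended on the test. Casp4 had an adjusted p under 0.05 in all 9 alternatives that kept the 8 mice and in 2 of 8 that left 1 out. Il1rn did so in 5 of 17 alternatives, Casp1 in 1 of 17 (DESeq2, adjusted p = 0.0275) and Pycard in 0 of 17, where its lowest adjusted p was 0.0581. The log2 fold changes of these 4 genes were below 0 in every one of those alternatives.

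**Figure D4:**
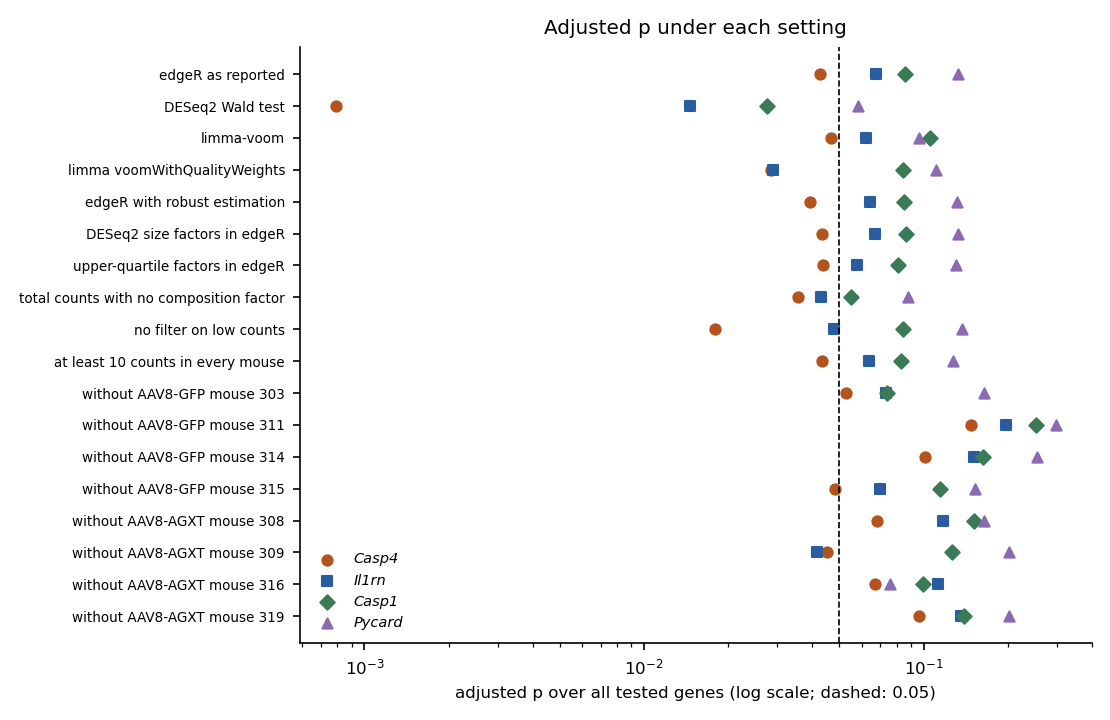
Adjusted p (log axis, dashed line at 0.05) of Casp4, Il1rn, Casp1 and Pycard in the edgeR fit and in each alternative, including every fit with 1 mouse left out. Casp4 is left of the line in every fit with all 8 mice, and all 4 genes have their highest value without control mouse 311.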

How the data were processed

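Poly(A) RNA of 8 livers was sequenced as stranded paired-end libraries. Per the labels and methods, the authors trimmed reads with Trimmomatic 0.35, aligned them to GRCm38 with HISAT2 2.1.0.13 after FastQC 0.11.8, and deposited raw HTSeq counts of read pairs per Ensembl gene; the strand option used in counting is not given in the sources used here. Reads shared by overlapping or near-identical genes can be lost or misassigned in such counts. Symbols came from GENCODE M21 (GRCm38).

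The counts were filtered with filterByExpr, TMM-scaled and tested with the edgeR 4.0.16 quasi-likelihood test (R 4.3.3; AAV8-AGXT against AAV8-GFP, no covariates; adjusted p under 0.05), after the fit was tested on simulated data. Ratios used CPM with a prior count of 2, and exact two-sided permutation tests. Animals are the replicates. The 10 genes and all lists were chosen with earlier results of these data known. Named are the 10 genes, Ptprc and Adgre1, and every list gene past the threshold or else up to the 4 with the smallest p. List genes too low to test and the 3 genes most like Il1b are also named. Saa1, the other tested genes of its list in mouse 319, Spp1, Alb, the genes most like Casp4 and 3 ratios were added later. Alternatives were DESeq2 1.42.0, limma 3.58.1 (voom, with and without quality weights), robust dispersion, other scalings, other filters, other prior counts and leaving out each mouse. Totals of 17095433 to 28780140 read pairs leave few read pairs on the lowest genes: the smallest count in a liver was 9 for Cxcl2, 11 for Pycard, 15 for Nlrp3, 16 for Card9 and Il33, 30 for Casp4 and 34 for Casp1, where counting error adds to the 23.3% common biological variation.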

Additional observations from a re-analysis of the deposited data

Results flagged for a closer look

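Of 42 groups of 4 values tested for a single distant value, 2 held one, where chance gives about 1 in 20. The Il1r1 level of AAV8-GFP mouse 303, at 44.1 CPM, was far below the other 3 controls (129 to 135 CPM). The log2 ratio of Il1a to Ptprc in AAV8-AGXT mouse 308, at -0.13, was far above the other 3 AAV8-AGXT mice, in the liver with the lowest Ptprc. The causes were not tested.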

How the results depend on the processing

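With 4 mice per group, leaving out single mice removed many calls. The count of the 10 genes called lower, 1 as reported, was 3 with DESeq2, 2 with quality-weighted voom, 2 with total counts as the scale and 2 with no filter, and 0 to 2 with 1 mouse left out. It was 0 higher in every alternative. Over all genes, 374 were called higher and 290 lower. DESeq2 gave 1068 and 1033, quality-weighted voom 804 and 606, and total counts 144 and 857, where the median log2 fold change moved from 0.02 to -0.22. Upper-quartile scaling gave 254 and 298, so 46.0% of calls were higher rather than 56.3%. Leaving out 1 mouse gave 2 to 379 higher and 0 to 325 lower calls, with 2 and 0 without control mouse 311, 11 and 4 without 314, and 12 and 2 without AAV8-AGXT mouse 319. Of 170 refitted fold changes, 8 turned direction, none past the threshold. With total counts, Il1b was at -0.007, Il18 at -0.136 and Il1r1 at -0.034. Without 1 mouse, Il1b ranged from -0.184 (without 319) to 0.473 and was -0.013 without 314, Il18 ranged from -0.084 (319) to 0.19, and Il1r1 from -0.169 (319) to 0.398, at -0.055 without 303. Relative to Ptprc, Il1a ranged from -0.154 (308) to 0.76 and Il1rn from -0.352 to 0.135 (316), at 0.019 without 314 and 0.036 without 319. Il1r1 relative to Ptprc had an exact permutation p of 0.0286 (log2 difference 1.17) without mouse 316. The causes were not tested. No paired analysis was possible because the mouse numbers in the labels are not shared between groups.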

Other observations

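Over the 8 mice, the tested genes whose log2 CPM was most like that of Il1b were Unc45a (Pearson r = 0.97, Spearman rho = 0.83), Tnnc1 (0.97 and 0.83) and Ctsz (0.96 and 0.95), a lysosomal cathepsin gene. After the group means were removed they were Atf7ip (r = 0.99), Grina (0.98) and Diablo (0.98). Those most like Casp4, chosen after its values were seen, were Krtcap3 (r = 0.99), Tmem273 (0.99) and Tnfaip3 (0.98). Among the 45 pairs of the 10 genes, r was highest for Casp4 with Il1rn (0.96) and for Casp1 with Casp4 (0.94), and within groups for Gsdmd with Il18 (0.96). The points share libraries and include the group difference, and the genes were picked as the highest of 15248, so these are descriptions. Nlrp6, a sensor best known from the gut and named after its values were seen, was the listed sensor with the most CPM, at 188 to 289 CPM in controls and 217 to 385 CPM in the AAV8-AGXT group (edgeR, adjusted p = 0.218).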
